A study of Mus musculus with 10 samples.

Results

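Lines of mouse embryonic stem cells (mESCs) from male C57/Bl6 embryos were followed by low-coverage whole-genome DNA sequencing from the start of the experiment (p0) to passage 20 (p20) in the Keniry2022 culture conditions. The p20 Keniry2022 group and the p0 group each held 2 libraries, so 4 of the 10 libraries of the series were compared, over 2391 of 2473 autosomal bins of 1 Mb that passed a filter on low reads. All cultures were kept in 2i medium. In the Keniry2022 conditions cells were passaged daily, at higher density, in suspension on plates not treated for tissue culture and in larger volumes of medium, whereas the other protocol, Mulas2019, passaged cells less often on gelatin. By the methods of the study 2 independently derived lines were split at p0 into both protocols, so a replicate is a line, and the spread between lines rests on 2 values a group. Each library is a population of cells, so a change in all cells and a larger change in some of them cannot be told apart, and as the lines had been derived with the Keniry2022 method, p20 differs from p0 in time in culture. With 2 libraries against 2, a permutation test cannot give a two-sided p under 0.333, so the tests below borrow the spread from all bins or chromosomes.

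mESCs capture the pluripotent epiblast of the early embryo. 2i medium holds them in the naive state with inhibitors of MEK and of GSK3, while the cytokine LIF signals through STAT3. In culture, cells that gain or lose a chromosome and grow faster can overtake the dish, and gains of chromosomes 1, 8 and 11 are among those known to recur in mESCs. In shotgun DNA sequencing the reads of a region scale with its copy number, but also with its base composition, since amplification during library preparation and sequencing favours some GC contents over others.

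The depth was 30515890 and 30644653 reads at p0 and 32707364 and 33003961 reads at p20, within the range of 27270648 to 35354358 over the 10 libraries. The median bin held 12774 to 13807 reads in these 4 libraries, for a counting error of 0.851% to 0.885%. Values are reads per bin relative to the library total (CPM) on a log2 scale, recovered from the deposited log2 values of 10 kb windows, and a change is the log2 CPM of p20 Keniry2022 minus that of p0.

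Which line each p20 Keniry2022 library came from is in doubt. The Y chromosome took 0.00145% of reads in p0 replicate 1 and 0.0554% in p0 replicate 2, but 0.0441% in the library labelled p20 Keniry2022 replicate 1 and 0.000673% in that labelled replicate 2. In the other 4 groups the library with more Y reads was replicate 2. A chromosome 14 bin (43000001 to 44000000, 22 protein-coding genes) was chosen after the data were seen, as the bin outside chromosome 3 whose replicates differed in every group by the largest minimum. With a correction for GC content its log2 CPM, relative to the median of the 10 libraries, was 0.026 and -0.071 in p0 replicates 1 and 2 and -0.085 and 0.053 in the p20 Keniry2022 libraries, again in the opposite order. The libraries labelled male thus fell into some with and some nearly without Y reads. They are called by their labels below, and group means do not depend on the numbering.

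Chromosome 3 stood apart from the other 18 autosomes. It took 5.88% (95% Wilson interval 5.87 to 5.89) and 5.93% (5.92 to 5.93) of autosomal reads in p0 replicates 1 and 2. In p20 Keniry2022 replicates 1 and 2 it took 6.74% (6.73 to 6.75) and 6.32% (6.32 to 6.33). Both p20 libraries lay above both p0 libraries, and the labelled replicate 1 lay above replicate 2. These intervals cover counting error within each library only, not the spread between libraries, and the libraries carried no molecular identifiers.

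The shift of a chromosome was taken as the median log2 CPM of its bins minus the median of all autosomal bins. For chromosome 3 the p0 libraries lay 0.0010 above and below their mean, and the p20 Keniry2022 libraries lay 0.197 and 0.096 above it. The difference between the groups was 0.146 (SE 0.059, 95% interval -0.00016 to 0.292, limma adjusted p 0.226 over 21 chromosomes), so the mean shift did not pass the threshold although both libraries moved the same way. After the GC correction the libraries had 0.174 and 0.081, and the difference was 0.128 (SE 0.058, limma adjusted p 0.192). The 2 libraries differed from each other by 0.101 before the correction, and the fit's spread pools all 5 groups. Without p20 Keniry2022 replicate 2 the shift was 0.197, and without replicate 1 it was 0.096, with limma adjusted p values of 0.264 and 0.505.

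As a scale, an extra copy of chromosome 3 in every cell of a diploid culture would give a shift of 0.585, and in 10% of cells 0.070. The GC-corrected shifts of 0.174 and 0.081 have the size that an extra copy in 25.6% and 11.6% of cells would give. This is arithmetic on the read share, as single cells were not measured.

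**Figure D1:**
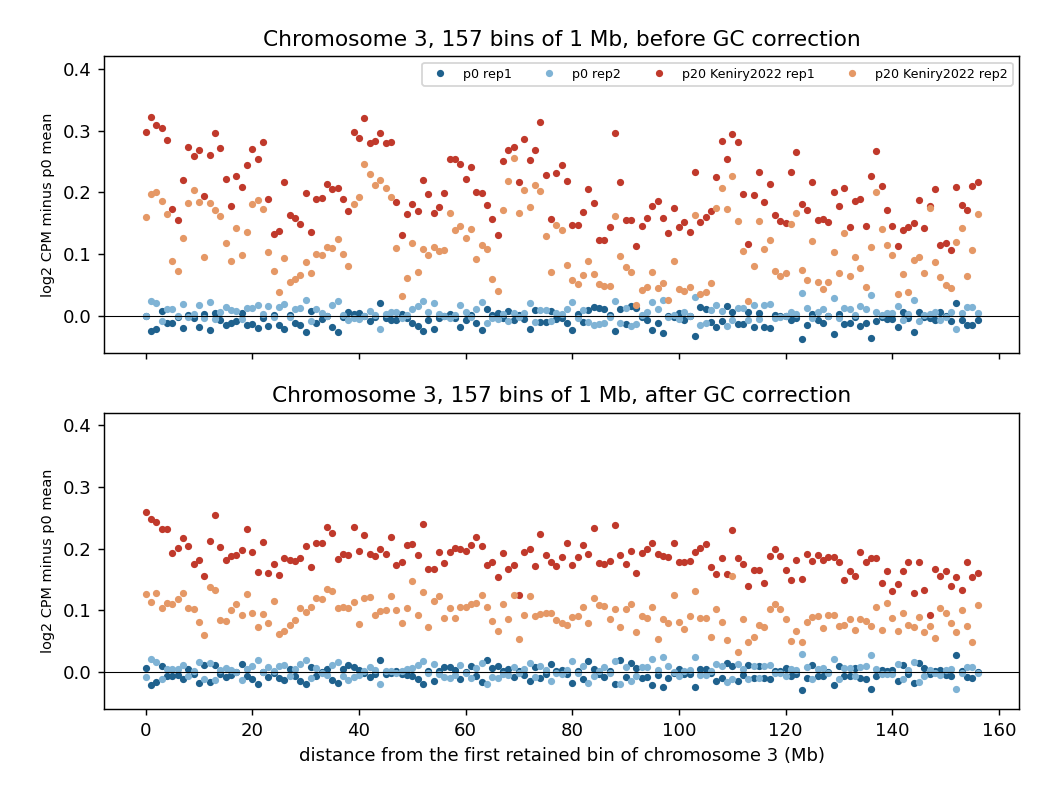
Log2 CPM of each of the 157 bins of chromosome 3 minus the mean of the 2 p0 libraries, before (top) and after (bottom) the GC correction, against the distance in Mb from the first retained bin. Points are bins of p0 replicates 1 and 2 (blue) and p20 Keniry2022 replicates 1 (red) and 2 (orange). After the correction the red points have a median of 0.185 and the orange points a median of 0.093, along the whole chromosome.

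The change extended over the whole of chromosome 3. All 157 bins that passed the filter, from 3000001 to 160000000 (mm10), were higher in both p20 Keniry2022 libraries than in both p0 libraries, before and after the GC correction. Over all 2541 bins tested, X and Y included, 36.2% lay above p0 in this way before the correction and 29.2% after it. Before the correction the change of a chromosome 3 bin ranged from 0.107 to 0.322 with a median of 0.195 in replicate 1. In replicate 2 it ranged from 0.018 to 0.256 with a median of 0.104. With the correction the ranges were 0.092 to 0.260 and 0.032 to 0.156, and the SD over bins fell from 0.054 to 0.027 and from 0.056 to 0.022. Replicate 1 was above replicate 2 in 157 of 157 bins after the correction.

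Within chromosome 3 the GC-corrected change was somewhat larger at the start of the assembly than at its end. In the first 20 Mb the median was 0.204 in replicate 1 and 0.110 in replicate 2, over 17 bins. From 140 to 160 Mb it was 0.155 and 0.078, over 20 bins. The 6 blocks between had medians of 0.179 to 0.193 and 0.081 to 0.103. A straight line over the bins fell by 0.032 per 100 Mb in replicate 1 and by 0.021 per 100 Mb in replicate 2, given here as a description. No block returned to the p0 level in either library.

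The bins with the largest rises were all on chromosome 3. That from 44000001 to 45000000, with a GC content of 36.3% and no protein-coding gene, had 199.6 and 199.4 CPM at p0 and 249.1 and 236.7 CPM at p20 Keniry2022, a change of 0.28 (SE 0.065). It was followed by the bins from 72000001 (0.26), which holds Sis, the intestinal sucrase-isomaltase, from 113000001 (0.26), which holds the pancreatic amylase genes Amy2a5, Amy2a4 and Amy2a3 among its 7, and from 4000001 and 77000001 (0.26 each), without a protein-coding gene. These 5 bins had GC contents of 36.2% to 37.9%.

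On the GC-corrected scale the largest rises were the bins from 16000001 (0.19), with the m6A reader Ythdf3, from 113000001 (0.19), from 3000001 (0.19), with the nuclear receptor Hnf4g, from 5000001 (0.19), with Zfhx4, Pex2 and Gm8797, and from 37000001 (0.18), with Adad1, Il2 and Il21 first among its 10 genes. The bin from 37000001 had 446.0 and 445.9 CPM at p0, and 517.3 and 481.9 CPM at p20 Keniry2022. Its groups did not overlap, and the labelled replicate 1 was the higher. Outside chromosome 3 the largest GC-corrected rise was 0.068.

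No bin passed the test against a minimum change of 1.1-fold. That minimum, 0.1375 in log2, was near the median change of the chromosome 3 bins (0.147), whose median SE was 0.046. The test could therefore hardly call a chromosome 3 bin. With limma's TREAT 0 of 2541 bins (0.0%) had an adjusted p under 0.05, and 14 autosomal bins had an unadjusted p under 0.05, all 14 on chromosome 3. Voom on the recovered reads also called 0 bins, with 9 autosomal bins at an unadjusted p under 0.05. In size, 107 autosomal bins exceeded 1.1-fold upwards and 0 downwards, and 95 of the 107 were on chromosome 3. With the GC correction 83 bins exceeded it, all on chromosome 3. With no minimum change the count was 0 without the replicate block and 421 with it as a random effect. The latter fit was not planned, and its block uses the labelled replicate numbers, which are in doubt for p20 Keniry2022.

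**Figure D2:**
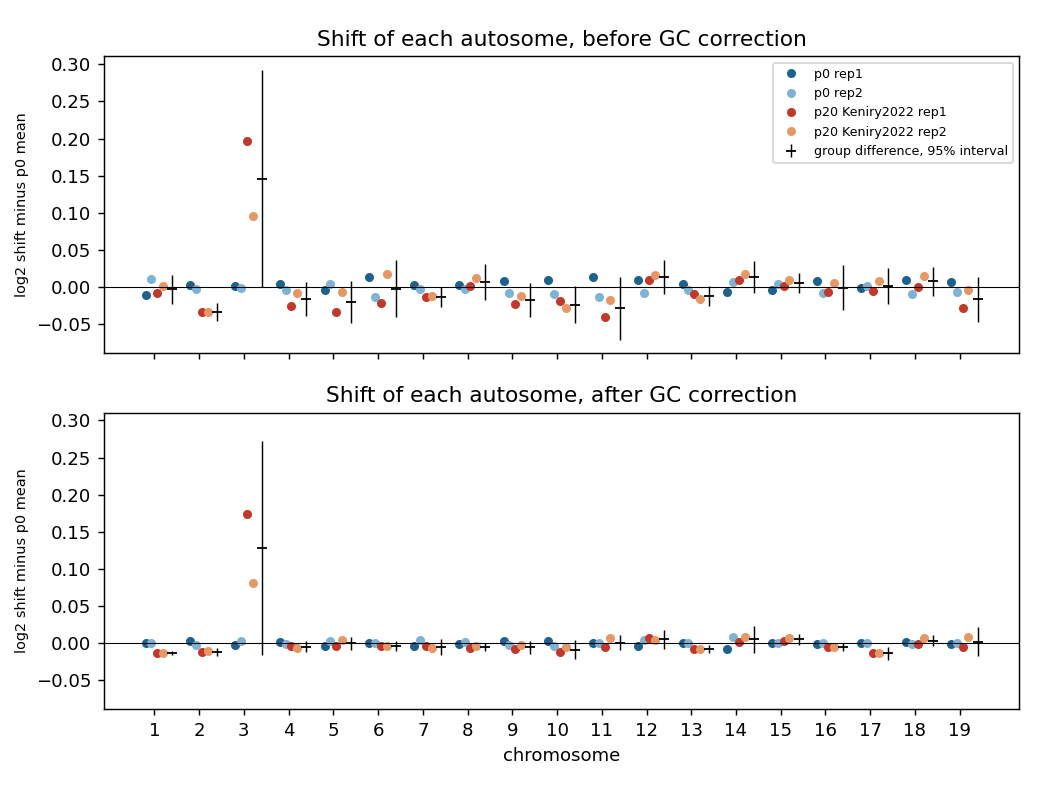
Shift of each autosome (median log2 CPM of its bins minus the autosomal median) relative to the mean of the p0 libraries, before (top) and after (bottom) the GC correction. Points are the 4 libraries, and black bars give the group difference with its 95% interval from limma. Chromosome 3 had 0.146 before and 0.128 after the correction, and the other 18 autosomes lay between -0.034 and 0.013 before it and between -0.013 and 0.005 after it.

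The other 18 autosomes had differences of -0.034 to 0.013 before and -0.013 to 0.005 after the GC correction. Of the 21 chromosomes tested, 1 (4.76%) passed the threshold, namely chromosome 2. Its p0 libraries lay 0.0031 above and below their mean, and its p20 Keniry2022 libraries lay at -0.034 and -0.034. The difference was -0.034 (SE 0.0049, limma adjusted p 0.0111), and -0.012 (limma adjusted p 0.0214) after the GC correction. The call was lost without p0 replicate 1, without either p20 Keniry2022 library and with total CPM in place of medians, with differences of -0.031, -0.034, -0.034 and -0.013, and also with only the 4 libraries in the fit (-0.034, limma adjusted p 0.161) and with bins under 0.5 of the median removed (-0.026, limma adjusted p 0.233). The GC-corrected call was lost with only the 4 libraries (-0.012, limma adjusted p 0.0727). Chromosome 1 passed as well with the GC correction, at -0.013 (SE 0.0011, limma adjusted p 0.00059), with -0.013 in both libraries. Since shifts are relative to the autosomal median, which chromosome 3 raises, the other chromosomes are lowered by construction, and with the median taken without chromosome 3 the value of chromosome 2 before GC correction was -0.023 (limma adjusted p 0.0171), still past the threshold, and that of chromosome 1 turned from -0.0033 to 0.0078.

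The chromosomes known for recurrent gains did not show one of the size seen on chromosome 3. Chromosome 8 lay at 0.00068 and 0.012 in the p20 Keniry2022 libraries, and the group difference was 0.0065 (95% interval -0.018 to 0.031). Its upper bound has the size of an extra copy in 4.33% of cells, but with the reference median taken without chromosome 3 the difference itself was larger, 0.018 (limma adjusted p 0.120). Chromosome 11 had a difference of -0.029 (-0.071 to 0.013) and chromosome 1 one of -0.0033 (-0.022 to 0.016). The GC-corrected intervals were -0.010 to -0.000058 for chromosome 8, -0.0094 to 0.011 for chromosome 11 and -0.016 to -0.011 for chromosome 1, so chromosomes 8 and 11 changed sign while staying near 0.

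The second pattern was a relation of the change to base composition. Shown, as examples of the sequence at both ends of the GC range, are the middle 150 bases of the autosomal bin with the lowest and of that with the highest GC content, from the plus strand of GRCm38 (mm10), with CpG dinucleotides in capitals. The first lies at chr16:67499926-67500075 in an intron of Cadm2, a cell adhesion gene, and has a GC content of 39.3%, while its bin (67000001 to 68000000, 1 protein-coding gene) has 35.7%. The second lies at chr10:80499926-80500075 in an intron of the transcription factor gene Onecut3, and 75 of its 150 bases are G or C, while its bin (80000001 to 81000000, 55 protein-coding genes) has 53.7%.
Lowest GC bin, chromosome 16: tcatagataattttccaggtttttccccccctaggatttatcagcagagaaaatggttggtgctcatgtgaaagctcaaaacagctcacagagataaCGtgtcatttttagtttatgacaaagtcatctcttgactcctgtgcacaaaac
Highest GC bin, chromosome 10: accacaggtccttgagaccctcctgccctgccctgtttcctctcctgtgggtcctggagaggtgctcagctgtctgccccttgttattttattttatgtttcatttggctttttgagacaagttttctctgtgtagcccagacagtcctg

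The Cadm2 bin changed by 0.073 and 0.111 in p20 Keniry2022 replicates 1 and 2, and the bin around Onecut3 by 0.0084 and -0.021, closer to 0 than the median of its GC class given below. Over the 2391 autosomal bins the change fell by 0.013 per percent of GC content (0.012 in replicate 1 and 0.014 in replicate 2). Pearson's r across bins was -0.72, and -0.82 without chromosome 3. Bins are not independent replicates and share the 4 libraries, so these are descriptions. The relation was present in both p20 libraries. The p0 libraries also differed from each other along GC content, but less, with medians of replicate 1 minus replicate 2 from -0.019 to 0.035 over the bins outside chromosome 3 in 10 classes of GC content, which hold equal numbers of autosomal bins.

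In the class of lowest GC content (35.7% to 37.4%) the bins outside chromosome 3 had a median change of 0.086 in replicate 1 and 0.119 in replicate 2. Those in the class of highest GC content (46.8% to 53.7%) had -0.041 and -0.047. The change thus ran opposite to gene density, since the bins of these classes hold a median of 0 and 19 protein-coding genes. The median change fell through the classes between, from 0.063 in the class next to the lowest to -0.021 and -0.034 in the sixth and seventh, and levelled off at -0.038, -0.043 and -0.043 in the 3 highest of the 10 classes. The GC trend separates the groups, so its part in these changes and that of passage cannot be told apart.

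**Figure D3:**
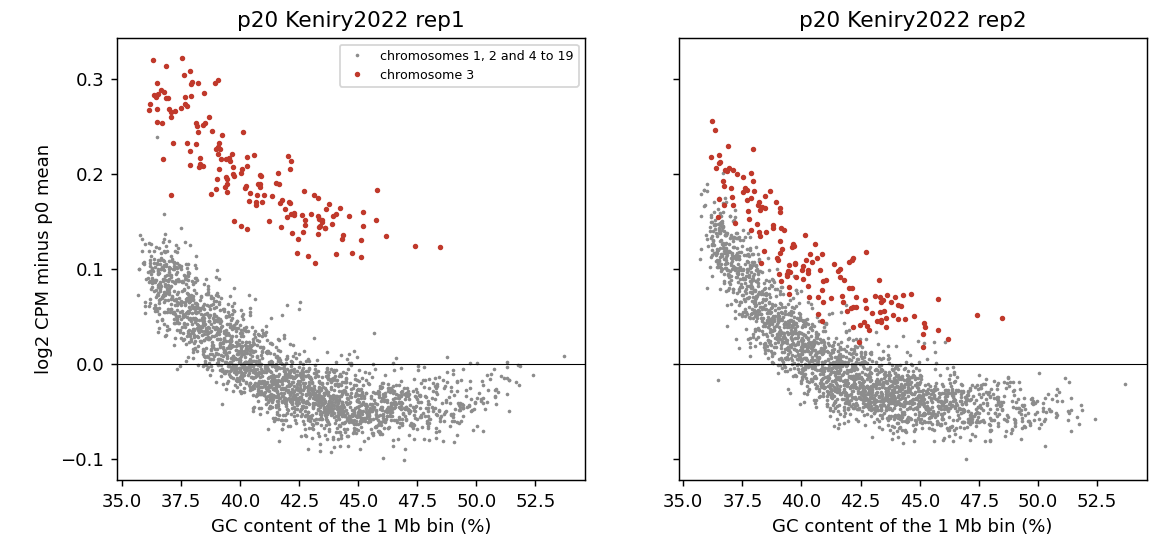
Log2 CPM of each 1 Mb autosomal bin minus the p0 mean (before GC correction) against the GC content of the bin in percent, for p20 Keniry2022 replicates 1 (left) and 2 (right). Red points are the 157 bins of chromosome 3 and grey points the 2234 bins of the other autosomes. Grey bins with low GC content lie above 0 and those with high GC content below it, and the red bins run along the same curve at a higher level.

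The GC trend and chromosome 3 together held most of the spread. The SD of the change over autosomal bins was 0.064 (0.071 in replicate 1 and 0.062 in replicate 2), against 0.028 for p0 replicate 1 minus replicate 2. Without chromosome 3 it was 0.051, after the GC correction 0.039, and with both 0.020. For this change of group means counting alone gives 0.013, so the 0.020 left was more than counting error. On the last scale the difference between the single p0 libraries had an SD of 0.022 and that between the p20 Keniry2022 libraries 0.022, where counting alone gives 0.019. Once both were taken out, the p20 libraries were therefore about as far from each other as the p0 libraries were.

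**Figure D4:**
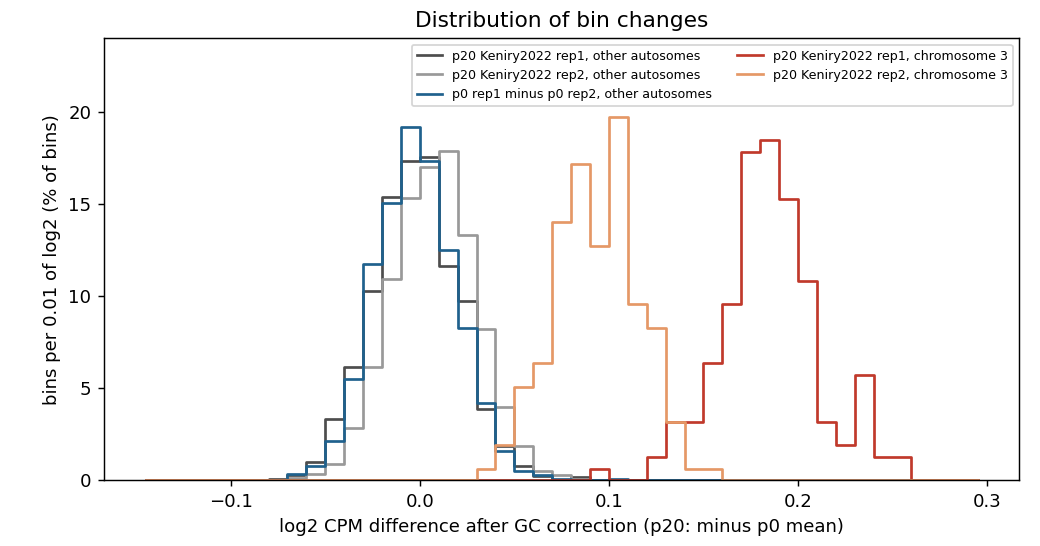
Distribution of GC-corrected changes in percent of bins per 0.01 of log2 CPM. Grey lines are the 2234 bins outside chromosome 3 in the p20 Keniry2022 libraries, blue is p0 replicate 1 minus replicate 2 over the same bins, and red and orange are the 157 bins of chromosome 3 in p20 Keniry2022 replicates 1 and 2. The grey and blue curves overlap, with SDs of 0.023 and 0.022 for grey and 0.022 for blue, while chromosome 3 is centred at 0.185 and 0.093. Grey values are taken from the mean of 2 p0 libraries and blue values from a single library, so equal SDs do not mean equal noise.

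The largest falls were small. Before the GC correction the lowest bin lay on chromosome 4 from 42000001 to 43000000, with 79.6 and 78.6 CPM at p0 and 73.7 and 73.8 CPM at p20 Keniry2022, a change of -0.10 (SE 0.058). It holds 26 protein-coding genes, the first being Gm21093, Gm3893 and Gm13304, and reads there were 0.183 of those of the median bin. The next were on chromosome 9 from 102000001 (-0.081; Ephb1, Ky and Cep63), chromosome 4 from 124000001 (-0.080; 3100002H09Rik, Pou3f1 and Utp11), chromosome 10 from 119000001 (-0.080; Cand1 and Grip1) and chromosome 4 from 141000001 (-0.078; Mfap2, Crocc and Necap2). These 4 had GC contents of 43.4% to 50.3%, and after the GC correction their changes were -0.029, -0.025, -0.044 and -0.028.

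On the GC-corrected scale the lowest bin was on chromosome 17 from 39000001 (-0.080, SE 0.067), which holds the exocrine peptide genes Esp24 and Esp23 and Gm21903. Its window from 39840001 to 39850000 took 239.2 and 203.2 CPM at p0 and 202.4 and 213.3 CPM at p20, so the groups overlapped there. The whole bin had 428.7 and 400.8 CPM at p0 and 413.0 and 419.4 CPM at p20. This 10 kb window thus held a large part of the reads of the bin, and the value is not particular to the named genes. Further low bins were on chromosome 10 from 114000001 (-0.064), with the peptidase gene Trhde, chromosome 16 from 74000001 (-0.063), with the axon guidance receptor gene Robo2, and chromosome 10 from 55000001 (-0.057), without a gene. Before the correction these 4 bins had values above 0, from 0.0058 to 0.036.

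Longer stretches of change outside chromosome 3 depended on the processing. Before the GC correction the longest run of bins below both p0 libraries was on chromosome 7 from 125000001 to 145000000, with 20 bins and a median of -0.049, and a run of 17 bins on chromosome 4 from 64000001 to 81000000 lay above p0 with a median of 0.061. With the correction the longest runs above p0 after that of chromosome 3 had 7 bins, on chromosome 17 from 20000001 (median 0.032) and chromosome 15 from 61000001 (0.030). The longest run below p0 is not reported here, and the next were on chromosome 10 from 114000001 (6 bins, -0.023) and chromosome 1 from 149000001 (5 bins, -0.031). When each library was also centred on its autosomal median, the longest run below p0 was instead on chromosome 13 from 102000001, with 17 bins and a median of -0.024.

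Counts of bins outside the p0 range moved with the scaling in the same way. Before the GC correction 832 autosomal bins lay above and 1006 below both p0 libraries, against 36.2% and 40.4% of all 2541 bins. After it the counts were 698 and 387, against 29.2% and 16.2%. When each library was centred on its autosomal median they were 932 and 788 before and 513 and 641 after the correction. On all 4 scales chromosome 3 had 157 bins above and 0 below.

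Smaller gains or losses were sought in the 10 kb windows. Of 232718 autosomal windows with at least 30 reads in both p0 libraries, 30 were above and 3 below 1.5-fold of both p0 libraries in both p20 libraries. The 30 included 15 on chromosome 3. No 2 of them were adjacent, so 0 runs of at least 3 windows, and also 0 of at least 2, were found in either direction. At 2-fold 0 windows remained. No window with that many reads at p0 was empty in both p20 libraries. An extra copy in every diploid cell would itself give 1.5-fold (0.585 in log2), the limit of this rule. With a median of 129 to 140 reads per window, counting error could therefore hide such a gain. The absence of runs says little about gains of 1 copy, and a change carried by a small share of cells was not detectable at this size.

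The loci of pluripotency genes outside chromosome 3 stayed close to p0 once GC content was taken into account. A locus is given as the 1 Mb bin with the middle of the gene, so neighbouring genes share a value. The 24 naive pluripotency genes lie in 23 bins, of which 0 passed the test. Their median change was -0.046 before and 0.0016 after the GC correction, beside -0.010 and 0.0042 over all autosomal bins. These bins are GC-rich, and 19 of the 23 lay below both p0 libraries before the correction (42.1% of all autosomal bins did). With the correction 2 lay below and 6 above, where 16.2% and 29.2% of all autosomal bins did, so these counts are near or under the background.

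Outside chromosome 3 the GC-corrected values of this list ran from -0.017, for the bin shared by Nanog and Dppa3, to 0.031, for Klf2. Pou5f1, which encodes the core factor Oct4, lies in a chromosome 17 bin with 534.5 and 524.9 CPM at p0 and 519.4 and 519.4 CPM at p20. This was -0.028 before and 0.026 after the correction, so the direction depended on it. The 2 members on chromosome 3 differed from these. Sox2, the partner of Oct4, had 503.0 and 497.7 CPM at p0 and 550.1 and 525.3 CPM at p20, a change of 0.10 (SE 0.046) before and 0.14 after the correction. Tet2, a DNA demethylase, had 399.4 and 397.7 CPM and then 450.9 and 418.5 CPM, or 0.12 and 0.13.

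The 15 genes of the LIF and 2i pathways lie in 15 bins, none of them on chromosome 3, and 0 passed. Their median was -0.046 before and 0.0066 after the GC correction, with a range of -0.035 to 0.033. The lowest was Jak1, the kinase of the LIF receptor, whose bin had 481.6 and 488.8 CPM at p0 and 457.9 and 466.4 CPM at p20. The highest was Map2k2, which encodes a MEK kinase, at 0.033, and Map2k1, the other MEK gene, had -0.011. Stat3 had -0.0055, and Gsk3a and Gsk3b had 0.011 and 0.0082.

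The 26 genes of growth and cell death control lie in 24 bins, of which 0 passed, with a median of -0.044 before and -0.0015 after the GC correction. Of the 24, 3 lay above and 18 below both p0 libraries before it, where 34.8% and 42.1% of all autosomal bins did, and 6 above and 4 below after it, close to the 29.2% and 16.2% of all autosomal bins. Myc, whose locus on chromosome 15 had 360.2 and 372.9 CPM at p0 and 378.7 and 377.5 CPM at p20, had 0.045 before and 0.033 after the correction. Cdkn2a, which encodes the inhibitors p16 and Arf, had the lowest GC-corrected value of the list, -0.039, against -0.027 before the correction. The chromosome 2 bin of Bcl2l1, Id1 and Tpx2, genes of cell survival, differentiation and the spindle, had 583.0 and 570.6 CPM and then 552.3 and 547.4 CPM, a change of -0.069 before and -0.014 after the correction. Trp53 and Mdm2 had GC-corrected values of 0.0018 and -0.017, and Cdkn1a had -0.0061.

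All 11 listed genes on chromosome 3 lay in bins above both p0 libraries, which follows from the whole chromosome. Their GC-corrected changes ran from 0.11 for Mcl1, a survival factor of the Bcl2 family, to 0.18 for Fgf2, a growth factor. Pik3ca, the catalytic subunit of PI3 kinase, had 506.2 and 515.9 CPM at p0 and 566.9 and 535.4 CPM at p20. Nras, a small GTPase, had 514.3 and 510.6 CPM and then 566.4 and 528.5 CPM, and Ccna2, a cyclin, had 426.6 and 429.3 CPM and then 488.5 and 458.2 CPM. In each of these the labelled replicate 1 was the higher p20 library. The median of the 11 was 0.14, the same as over all 157 bins of the chromosome. RNA was not measured here, so these values are DNA copies and not expression.

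Chromosome 3 was also above p0 in the p10 Keniry2022 and p20 Mulas2019 libraries, in comparisons that share the p0 libraries. Its shift before the GC correction was 0.058 and 0.082 in p10 Keniry2022 replicates 1 and 2 and 0.125 and 0.283 in p20 Mulas2019 replicates 1 and 2. After the correction these values were 0.021 and 0.033, and 0.104 and 0.264. In both groups the labelled replicate 2, which holds the Y reads, was the higher, and in p20 Keniry2022 the library with Y reads was likewise the higher. Between p20 Keniry2022 and p20 Mulas2019 chromosome 3 differed by -0.058 (SE 0.059, 95% interval -0.204 to 0.089, limma adjusted p 0.484), so the protocols were not distinguished on it, nor shown to act alike.

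On other chromosomes the p20 groups of the protocols differed before the GC correction but not after it. Cells were passaged more often in the Keniry2022 conditions, so at the same passage number protocol and days in culture cannot be told apart. Of the 21 chromosomes tested, 9 (42.9%) differed between p20 Keniry2022 and p20 Mulas2019, 8 of them autosomes and all 8 higher in p20 Keniry2022, by 0.033 to 0.067. After the GC correction 0 autosomes passed. Chromosome 8 went from 0.047 to 0.0020 and chromosome 11 from 0.067 to -0.0030. The count of 8 was 0 without p20 Keniry2022 replicate 2, 0 without p20 Mulas2019 replicate 2 and 2 without p20 Mulas2019 replicate 1.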

How the data were processed

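The authors sequenced low-coverage DNA libraries, and per the labels reads were demultiplexed with bcl2fastq and mapped to mm10 with Bowtie2 (versions not given in the sources read). The deposited table holds log2 values of 10 kb windows for 10 libraries, scaled by the authors to a common library total, in which windows without reads hold 0.9 reads. Whole reads were recovered for 100.0% of values (tolerance 0.1 reads). CPM were summed in 1 Mb bins, bins under 0.1 of the median were removed, and blacklisted regions were not used here. The GC correction subtracted a loess curve (span 0.3). All 10 libraries entered a limma fit (limma 3.58.1, R 4.3.3) of 5 groups without a block, although the study blocked on the line, because the p20 Keniry2022 numbers are in doubt. TREAT (minimum 1.1-fold) and Benjamini-Hochberg adjustment at 0.05 ran over 2541 bins, and limma over 21 chromosomes. Scripts were checked on simulated data. Replicate differences of p20 Keniry2022 and p0 correlated at -0.039 over autosomal bins, and those of p20 Keniry2022 and the other groups at -0.69 to -0.19 (-0.076 to 0.053 without chromosome 3). The comparison, gene lists and tests were chosen with earlier results of these data known. Named were the 5 largest rises and falls with and without GC correction, up to 3 genes a bin, the 3 longest runs a direction, and gene lists, of which 1 bin is not reported here. Genes are from GENCODE. Python 3.11.15 was used otherwise.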

Additional observations from a re-analysis of the deposited data

Results flagged for a closer look

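Between p20 Keniry2022 and p20 Mulas2019 the shift relative to the autosomal median differed by limma (adjusted p under the threshold over 21 chromosomes) on 8 autosomes, each higher in p20 Keniry2022. The differences were 0.057 for chromosome 5, 0.033 for chromosome 7, 0.047 for chromosome 8, 0.046 for chromosome 9, 0.067 for chromosome 11, 0.045 for chromosome 12, 0.037 for chromosome 17 and 0.047 for chromosome 19. After the GC correction the same differences were -0.0024, 0.0017, 0.0020, 0.00089, -0.0030, 0.0073, -0.011 and -0.0032, and none passed.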

How the results depend on the processing

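The count of 0 called bins was 0 in all other alternatives run, voom and bins of 500 kb and 2 Mb included, except 421 with the random replicate block and no minimum change. The count of 1 called autosome (chromosome 2) was 2 (chromosomes 1 and 2) with the GC correction, with or without the random replicate block, 2 (chromosomes 2 and 7) with no filter on low bins and 3 (chromosomes 1, 13 and 17, not 2) with only the 4 libraries and the GC correction. It was 0 with only the 4 libraries, with bins under 0.5 of the median removed and with total CPM, and 0 to 1 with a library left out. Between the protocols, the count of 8 was 0 with the GC correction (also with the random replicate block or only the 4 libraries), 0 with only the 4 libraries, 0 with total CPM, and 0 to 8 with a library left out. The count between the protocols was 7 with no filter on low bins and 9 with the 19 autosomes only. It was 10 with the fixed replicate block or the p20 Keniry2022 numbers crossed, and 11 with the reference median taken without chromosome 3. Some of these added chromosomes 2, 13 and 16, whose differences in the main fit were -0.012, -0.012 and -0.036. The chromosome 3 shift stayed above 0 in every alternative (0.096 to 0.197) and past no threshold, with limma adjusted p 0.188 under the random replicate block and 0.120 with the p20 Keniry2022 numbers crossed, a pairing chosen after seeing the data, as were the 4 libraries with the GC correction, the reference without chromosome 3, and no minimum change with the random replicate block or the GC correction. Chromosome 1 ran from -0.014 to 0.0071 with a library left out, and reversed to 0.0071 without p0 replicate 2, 0.0014 without p20 Keniry2022 replicate 1 and 0.0078 with the reference median taken without chromosome 3. Chromosome 8 reversed to -0.0051 with the GC correction and -0.0090 with total CPM, and chromosome 11 to 0.00066 with the GC correction. The SD of changes was 0.051 without chromosome 3, 0.039 with the GC correction, 0.020 with both, and 0.062 to 0.071 with a library left out. The GC slope was -0.012 without chromosome 3, and -0.015 to -0.011 with a library left out. Of the named bins, the 5 lowest after the GC correction had -0.080, -0.064, -0.063, -0.057 and -0.054 with it against values above 0 before. With a library left out the first ran from -0.043 to 0.054, and without p20 Keniry2022 replicate 2 the first and the fourth had -0.0052 and -0.0019. The cause of these changes was not tested. Depth limits the 10 kb windows more than the 1 Mb bins.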
